A study of Mus musculus with 24 samples.

Results

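The eukaryotic translation initiation factor genes of mouse CD4 T cells were taken as every row of the count tables whose symbol starts with Eif and a digit, leaving out symbols that end in -ps, the mark of a pseudogene. The rule found 59 of 23420 symbols. Of these, 55 name initiation factors or proteins that act on them. The other 4, Eif2c1 to Eif2c4, are the older symbols of Ago1 to Ago4, the Argonaute proteins of small RNA silencing. They are counted as members in every total below unless said to be left out, and their levels are described in a paragraph of their own. RNA was sequenced from sorted cells in 24 libraries, 6 for each of 4 states. Reactivated TH1 cells, helper cells that make interferon gamma, had spent 5 days in differentiation and were then given macrophages pulsed with antigen for 6 hours. TH1 effector cells had the same 5 days without the macrophages, activated naive cells were stimulated for 6 hours with an agent that the labels do not name, and naive cells came from spleens. All 4 states came from mice of C57BL/6 background that carried 2 transgenes. Tg(TcraTcrb)425Cbn (OT-II) is a T cell receptor specific for a peptide of ovalbumin, and Tg(Nr4a1-EGFP/cre)820Khog is a reporter of receptor signalling that puts a fluorescent protein and Cre, a recombinase, under the Nr4a1 (Nur77) promoter. The label of genotype of every library is OT2Nur77GFP+/-.

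Initiation brings a ribosome to the start codon of a messenger RNA. eIF4F binds the cap at the 5' end through its subunit eIF4E and unwinds the leader with the helicase eIF4A, held together by the scaffold eIF4G. eIF3, a complex of many subunits, joins the small ribosomal subunit to eIF4F, eIF2 brings the initiator tRNA together with GTP, and eIF1, eIF1A, eIF5 and eIF5B govern scanning and the joining of the subunits. The best known controls are the 4E-binding proteins, which hold eIF4E away from eIF4G until the kinase mTORC1 phosphorylates them, and the eIF2α kinases, which block the recharging of eIF2 by eIF2B. Resting T cells make little protein, and activation raises both growth and protein synthesis. Transcript levels were measured here, and neither phosphorylation nor translation was.

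Between 18457653 and 34262645 reads per library were counted in genes. The names of the count tables carry 1 sequencing code for numbers 1 to 3 of each state and another for numbers 4 to 6, here called the first and second run. The summed level of 9 T cell markers was 3413 to 3883 CPM (counts scaled to the size of the library) in reactivated TH1, 3281 to 3675 CPM in TH1 effector, 4965 to 6063 CPM in activated naive and 4192 to 4590 CPM in naive libraries. The 11 macrophage markers found summed to 11.6 to 16.7 CPM in reactivated TH1, 3.32 to 4.67 CPM in TH1 effector, 9.26 to 11.8 CPM in activated naive and 7.40 to 10.8 CPM in naive libraries, with 1, 6, 4 and 5 of the 11 at 0 in the 4 states. Of the 11, 8 had a higher mean in reactivated TH1 than in TH1 effector libraries, Lyz2 by the most (5.98 against 0.0697 CPM), and Mrc1 (0.298 against 0.862 CPM) and Cd14 (0.358 against 0.416 CPM) had a lower one. Activated naive libraries had 4 with a higher and 4 with a lower mean than naive libraries. The part of macrophage RNA in the results below was not tested. The Y-linked member Eif2s3y, described below, was counted in numbers 1, 5 and 6 of every state and all but absent from numbers 2, 3 and 4, so that number and sex cannot be told apart. In bulk RNA, fewer cells of a kind and less RNA per cell cannot be told apart either.

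The initiation factor genes took a larger part of the messenger pool after stimulation of either cell. Their 59 symbols held 1.99 to 2.10% of all gene counts in the 6 reactivated TH1 libraries, against 1.45 to 1.51% in TH1 effector libraries. They held 1.93 to 2.02% in activated naive libraries, against 1.03 to 1.09% in naive libraries. The ranges did not overlap in either pair, and naive libraries were lowest. The eIF4F genes and their cofactors held 0.749% on average in reactivated TH1, 0.526% in TH1 effector, 0.705% in activated naive and 0.447% in naive libraries. The eIF3 genes held 0.540%, 0.420%, 0.522% and 0.268% in the same order. The 4E-binding protein genes held 0.0316%, 0.0340%, 0.0329% and 0.0311%, with overlapping libraries.

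**Figure D1:**
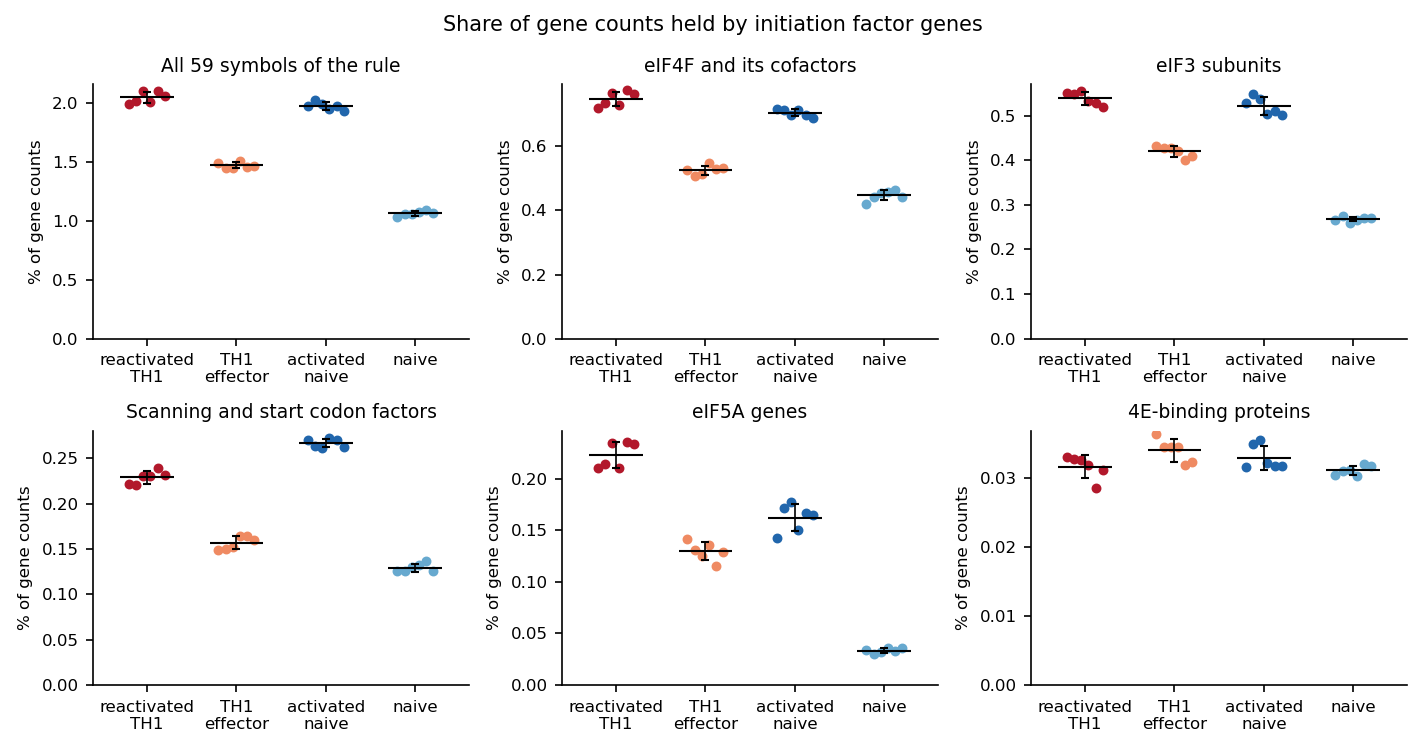
Percent of gene counts held by all 59 symbols and by 5 groups of them (y axes, from 0) in each library of the 4 states (x axes). Points are libraries, bars the mean and SD of 6. All 59 symbols held 1.99 to 2.10% in reactivated TH1 and 1.93 to 2.02% in activated naive libraries, above TH1 effector and naive libraries, while the 4E-binding proteins had overlapping libraries in all 4 states.

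Of the 59 symbols, 56 passed the filter on low counts and were tested. Eif3j1, Eif3j2 and Eif4e1b had no counts in any library, which allows up to 0.0171 CPM in reactivated TH1, 0.0184 CPM in TH1 effector, 0.0183 CPM in activated naive and 0.0218 CPM in naive libraries (3 counts over the 6 libraries, counting error only). Transcripts of Eif3j1 and Eif3j2, copies of the loosely bound eIF3 subunit j, match each other over at least 500 bases at 95% identity or more. Reads that align to more than 1 place did not enter the gene counts. Whether this left the pair without counts was not tested, and the limits above do not cover reads lost in alignment or annotation. After stimulation of naive cells, 40 of the 56 members were higher (71.4%, against 41.3% of the 12584 genes tested) and 8 lower (14.3%, against 40.5%) at an adjusted p under 0.05, in edgeR's quasi-likelihood test with Benjamini-Hochberg adjustment over all genes. In either direction 48 passed (85.7%, against 81.9%). In reactivated TH1 cells, 39 were higher than in TH1 effector cells (69.6%, against 39.9%) and 8 lower (14.3%, against 39.8%), 47 in all (83.9%, against 79.7%). The members passed about as often as other genes did, and more of those that passed were higher. The median log2 fold change of the members was 0.53 in TH1 and 0.70 in naive cells, where the medians over all genes were -0.002 and 0.005. Within the first run the counts were 38 higher and 8 lower in TH1, and 40 and 7 in naive cells. Within the second run they were 37 and 7 in TH1, and 40 and 6 in naive cells.

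The responses of TH1 and naive cells share no library. The 34 members higher in both made up 87.2% of those higher in TH1 and 85% of those higher in naive cells, where the same shares over all genes were 71.1% and 68.7%. These shares are to be read beside the share higher in each response at all, which was 69.6% of members in TH1 and 71.4% in naive cells, against 39.9% and 41.3% of all genes. Members past the threshold with at least a 2-fold rise numbered 7 in TH1 cells (12.5%, against 13.3% of all genes) and 26 in naive cells (46.4%, against 21.2%). In TH1 cells, the share of members at least 2-fold higher was near that of all genes. At least a 2-fold fall was found for 3 members in TH1 cells (5.36%, against 19.5%) and 2 in naive cells (3.57%, against 23.2%).

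**Figure D2:**
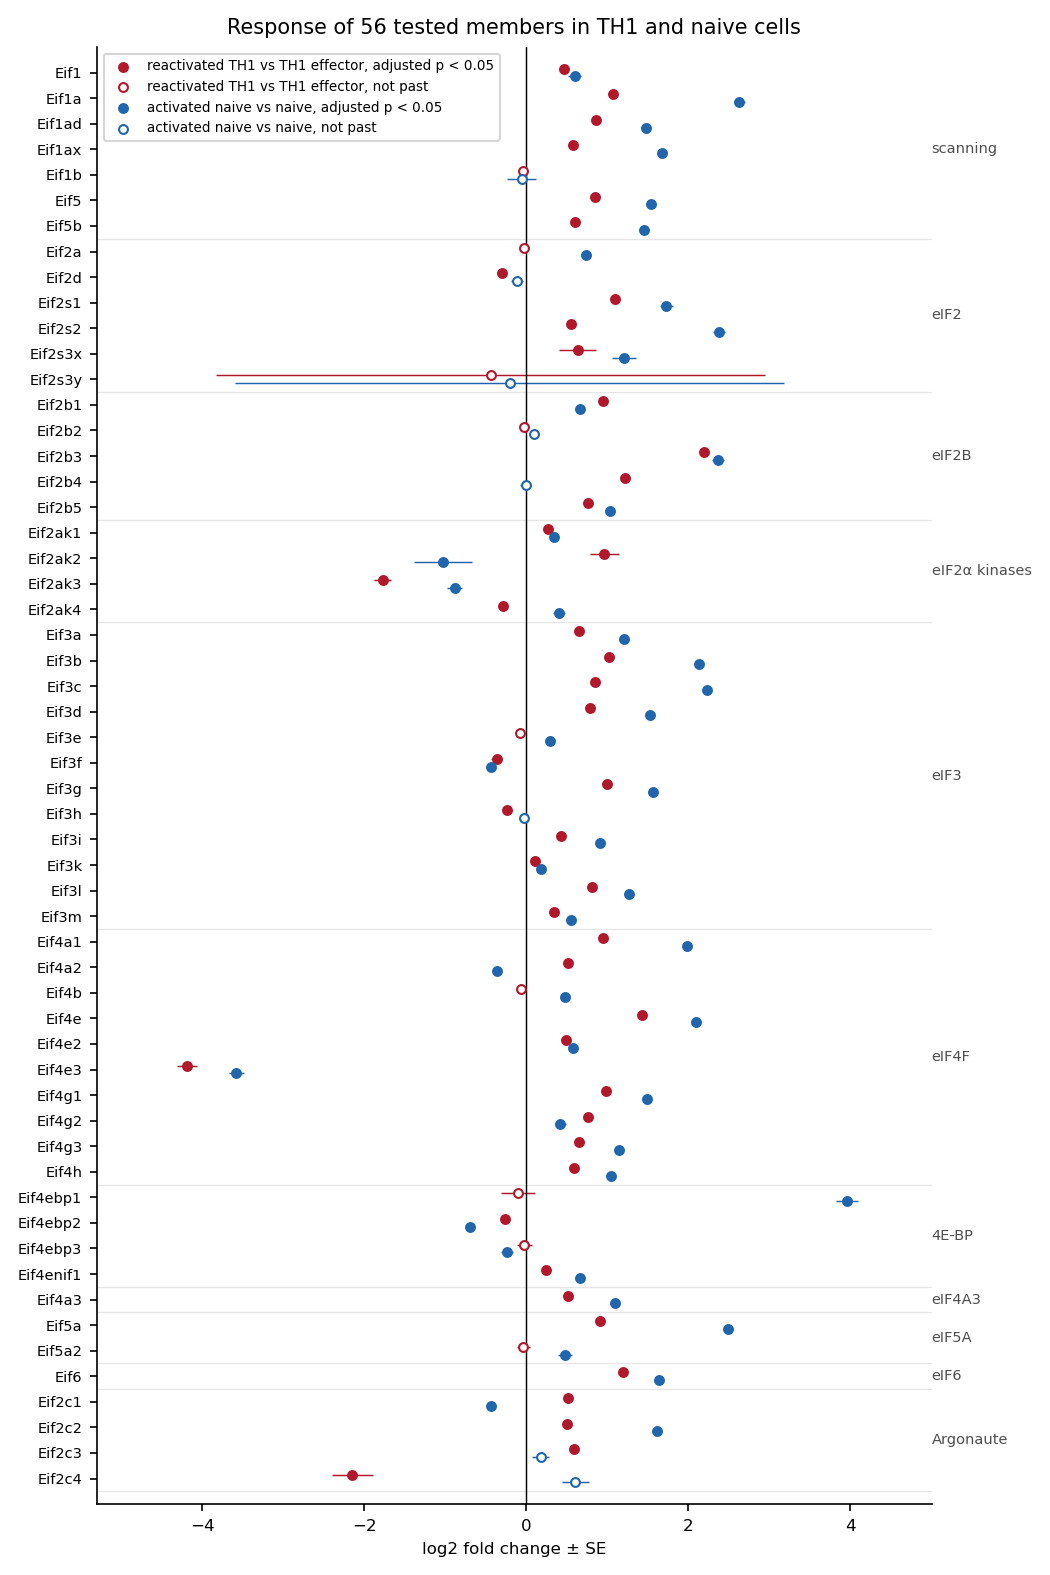
Log2 fold change with its SE (x axis) of the 56 tested members (y axis, grouped by role) in reactivated TH1 against TH1 effector cells (red) and in activated naive against naive cells (blue). Filled points passed an adjusted p of 0.05 and open points did not. Of the filled points, 39 red and 40 blue ones lie right of 0, while Eif4e3 and Eif2ak3 lie left of it in both responses, Eif4ebp1 stands far right in naive cells alone, and the wide bars of Eif2s3y span numbers with and without its reads.

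Promoter sequence is shown for 4 of the 9 members found to hold an E-box, the letters CACGTG, in the 250 bases before a start site. The 4 were picked with their values known. They are Eif4a1, Eif4g1 and Eif5a, which rose in both responses, and Eif3f, which fell in both. The E-box is the motif that MYC with MAX and other helix-loop-helix proteins can bind. It reads the same on both strands, so 1 search covers both. RefSeq promoter windows (GRCm38.p6) matched 46 of the 59 symbols, and 9 of the 46 (19.6%) held at least 1 E-box, against 9.95% of the 9328 tested genes with a window and 6.86% of all 27025 genes with one. The 9 are Eif1b, Eif3f, Eif3k, Eif4a1, Eif4e, Eif4g1, Eif4h, Eif5a and Eif5a2. The stretches below run 5' to 3' on the gene's strand with the motif in capitals. They lie at chr11:69672567-69672652 (minus strand, motif starting 189 bases before the start of Eif4a1), chr16:20672633-20672718 (plus, 54 bases before the RefSeq start of Eif4g1), chr11:69921415-69921500 (minus, 185 bases before 1 of the 6 starts of Eif5a) and chr7:108934307-108934392 (plus, 68 bases before that of Eif3f), and none overlaps an exon in GENCODE M21. The stretches of Eif4g1 and Eif5a lie inside these genes as GENCODE annotates them, which begin at chr16:20668313 and chr11:69921958.
Eif4a1: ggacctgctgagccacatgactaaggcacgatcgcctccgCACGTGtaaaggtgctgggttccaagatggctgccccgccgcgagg
Eif4g1: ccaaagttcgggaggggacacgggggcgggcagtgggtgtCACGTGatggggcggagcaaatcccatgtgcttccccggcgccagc
Eif5a: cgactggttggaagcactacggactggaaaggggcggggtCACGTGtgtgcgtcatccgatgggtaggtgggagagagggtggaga
Eif3f: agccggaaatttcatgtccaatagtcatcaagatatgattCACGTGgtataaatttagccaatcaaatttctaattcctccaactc

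Myc itself had 598 CPM on average in reactivated TH1, against 466 in TH1 effector, and 1033 in activated naive, against 65.5 in naive libraries. Its log2 fold change was 0.36 ± 0.10 (SE, adjusted p = 0.00300) in TH1 and 3.98 ± 0.13 (adjusted p = 2.45e-20) in naive cells. Of the 9 members with an E-box, 6 rose and 1 fell in TH1, and 7 rose and 1 fell in naive cells. Of the 36 tested members with a window and no E-box, 27 rose and 5 fell in TH1, and 25 rose and 5 fell in naive cells. Among all genes tested, 39.9% rose and 39.8% fell in TH1, and 41.3% rose and 40.5% fell in naive cells. No binding was measured.

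Of the 7 scanning and start codon genes, 6 rose in each response and Eif1b, a copy of Eif1, did not pass in either. The shares of all genes that rose were 39.9% in TH1 and 41.3% in naive cells. Eif1a codes for eIF1A, which with eIF1 opens the small subunit for scanning. It had 214, 237.8 and 248.7 CPM at its lowest, median and highest in reactivated TH1 libraries, against 97.1, 112 and 133 CPM in TH1 effector libraries. It had 199, 215 and 241.7 CPM at its lowest, median and highest in activated naive libraries, against 29.8, 35.0 and 42.7 CPM in naive libraries. The groups did not overlap in either pair, and naive libraries lay below all others. Its log2 fold change was 1.07 ± 0.041 (SE, n = 6 each; edgeR adjusted p = 3.62e-15) in TH1 and 2.63 ± 0.065 (edgeR adjusted p = 5.06e-23) in naive cells. The X-linked Eif1ax, which codes for nearly the same protein, rose less in naive cells (1.67 ± 0.031), and the log2 ratio of Eif1a to Eif1ax counts within a library differed by 0.96 between activated naive and naive libraries (exact two-sided permutation test, n = 6 each, adjusted p = 0.00306 over 48 ratio tests, the smallest that 6 against 6 can give here).

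Eif5, which codes for the protein that makes eIF2 hydrolyse its GTP at the start codon, averaged 799 ± 64.3 CPM in reactivated TH1, 448 ± 73.3 in TH1 effector, 1104 ± 32.6 in activated naive and 381 ± 38.2 CPM in naive libraries (SD, n = 6 each). Activated naive libraries were the highest, and Eif5 was 1.38-fold lower in reactivated TH1 than in activated naive cells (log2 fold change -0.47 ± 0.052, edgeR adjusted p = 1.73e-06). TH1 effector and naive libraries overlapped, and the small difference between them (0.22 ± 0.072, adjusted p = 0.00581) was 0.10 with adjusted p = 0.335 in the first run alone. Without number 4 it was 0.17 (adjusted p = 0.0549), and without number 6 0.17 (adjusted p = 0.0553). Eif1 (log2 fold change 0.46 ± 0.050 in TH1, 0.60 ± 0.077 in naive cells), Eif5b, the factor that joins the subunits (0.61 ± 0.050 and 1.46 ± 0.059), and Eif1ad, a relative of eIF1A (0.85 ± 0.035 and 1.48 ± 0.033), rose too. In TH1 effector against naive cells, 5 of the 7 were higher and none lower, the others being Eif1 and Eif1b. Over all genes, 44.6% were higher and 40.3% lower in that comparison.

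The 3 subunits of eIF2 are coded by Eif2s1 (alpha, the one the stress kinases phosphorylate), Eif2s2 (beta) and the X-linked and Y-linked pair Eif2s3x and Eif2s3y (gamma, which holds GTP and the tRNA). Eif2s1 had 352, 360.4 and 397 CPM at its lowest, median and highest in reactivated TH1 libraries, against 160.1, 172.8 and 189 CPM in TH1 effector libraries. It had 249.4, 289.6 and 309.6 CPM at its lowest, median and highest in activated naive libraries, against 75.2, 86.0 and 95.2 CPM in naive libraries. All 4 states were apart, with reactivated TH1 highest and naive lowest. The log2 fold changes were 1.09 ± 0.047 in TH1 (edgeR adjusted p = 2.05e-14) and 1.73 ± 0.080 in naive cells (edgeR adjusted p = 7.79e-19). Eif2s2 averaged 439.7 ± 29.4 CPM in reactivated TH1, 299.7 ± 22.2 in TH1 effector, 453 ± 40.6 in activated naive and 87.2 ± 9.73 CPM in naive libraries (SD, n = 6 each). The stimulated states overlapped for Eif2s2, and TH1 effector cells were 3.44-fold above naive cells (1.78 ± 0.055, adjusted p = 5.74e-18).

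The gamma pair followed the library number in every state. Eif2s3y had 67.1, 97.0 and 70.7 CPM in numbers 1, 5 and 6 of reactivated TH1, against 91.7, 137 and 89.6 CPM in those of TH1 effector cells. It had 90.3, 103 and 65.1 CPM in numbers 1, 5 and 6 of activated naive, against 98.2, 128 and 78.9 CPM in those of naive cells. In numbers 2, 3 and 4 it had no counts apart from 2 in naive number 3. Xist, the transcript of the inactive X chromosome, was the other way round, from 1104 to 2951 CPM in numbers 2, 3 and 4 and at most 0.87 CPM in numbers 1, 5 and 6. Eif2s3x had 153.9, 167.5 and 156.9 CPM in numbers 1, 5 and 6 of reactivated TH1, against 108, 103 and 105 CPM in those of TH1 effector cells. In numbers 2, 3 and 4 it had 256, 263 and 263 CPM in reactivated TH1, against 157.3, 161.7 and 177.8 CPM in TH1 effector cells. Numbers 2, 3 and 4 were above numbers 1, 5 and 6 in each of these states, and also in activated naive (181 to 192 CPM, above 137 to 149 CPM) and naive cells (78.8 to 88.2 CPM, above 57.5 to 63.2 CPM).

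Eif2s3x rose in both responses (0.63 ± 0.23 in TH1, edgeR adjusted p = 0.00221, and 1.20 ± 0.15 in naive cells, adjusted p = 1.68e-06), with overlapping libraries in TH1 cells. Among the numbers with Y-linked reads, and among those without, reactivated TH1 and TH1 effector libraries did not overlap. In the second run alone the TH1 value was 0.62 (adjusted p = 0.0661). Over the edgeR and DESeq2 settings tried, the adjusted p of the TH1 rise ran from 1.33e-09 to 0.0661. With library number as a block, Eif2s3x was also higher in reactivated TH1 than in activated naive cells (0.32, adjusted p = 2.68e-05, against 0.35 ± 0.20 and adjusted p = 0.0691 without the block). Eif2s3y passed in no comparison without the block, and with it was lower in reactivated TH1 than in TH1 effector cells (-0.43, adjusted p = 0.00348). Eif2a, an initiator tRNA carrier outside the eIF2 complex, rose in naive cells (0.73 ± 0.038, adjusted p = 5.06e-13) and did not pass in TH1 cells (-0.03 ± 0.056, adjusted p = 0.560). Eif2d, whose protein (ligatin) acts in non-standard initiation and ribosome recycling, fell in TH1 cells (-0.30 ± 0.052, adjusted p = 7.03e-05). In naive cells Eif2d had -0.12 ± 0.071 (adjusted p = 0.0820), and with the block -0.12 (adjusted p = 0.0354). Eif2d averaged 62.2 ± 4.45 CPM in reactivated TH1, 76.7 ± 3.40 in TH1 effector, 38.7 ± 4.0 in activated naive and 42.0 ± 1.54 CPM in naive libraries, so that both TH1 states lay above both naive states.

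**Figure D3:**
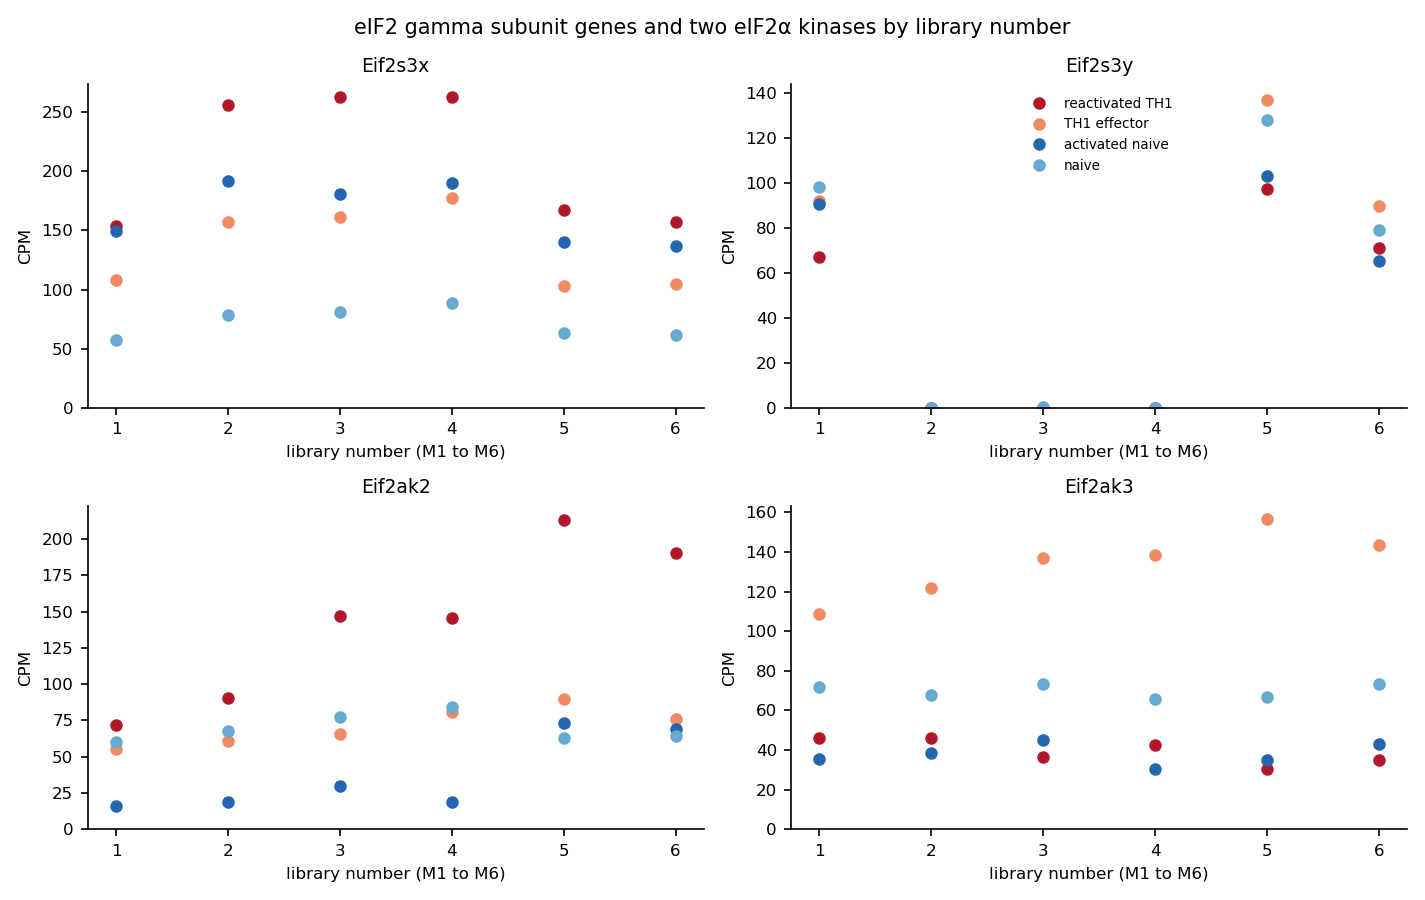
CPM (y axes, from 0) of Eif2s3x, Eif2s3y, Eif2ak2 and Eif2ak3 by library number (x axes), 1 point for each of the 24 libraries, coloured by state. Eif2s3y is at or near 0 in numbers 2, 3 and 4 of every state, where Eif2s3x is above its level in numbers 1, 5 and 6, and Eif2ak2 in activated naive cells is 15.7 to 29.8 CPM in numbers 1 to 4 and 68.9 to 73.0 CPM in numbers 5 and 6.

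eIF2B recharges eIF2 with GTP and is the complex that phosphorylated eIF2α blocks. Its 5 subunit genes did not move alike. Eif2b3, the gamma subunit, had 81.1, 83.2 and 90.0 CPM at its lowest, median and highest in reactivated TH1 libraries, against 16.2, 18.7 and 19.7 CPM in TH1 effector libraries. It had 58.0, 67.7 and 73.3 CPM at its lowest, median and highest in activated naive libraries, against 11.5, 13.2 and 14.2 CPM in naive libraries. Its groups were far apart in both pairs, and its log2 fold changes were 2.20 ± 0.038 (edgeR adjusted p = 3.10e-20) and 2.36 ± 0.070 (edgeR adjusted p = 1.37e-21), the largest rise of any member in TH1 cells. Eif2b4, the delta subunit, had 55.8, 62.6 and 69.0 CPM at its lowest, median and highest in reactivated TH1 libraries, against 22.6, 27.7 and 28.9 CPM in TH1 effector libraries. It had 37.6, 42.8 and 46.1 CPM at its lowest, median and highest in activated naive libraries, against 37.2, 43.0 and 46.1 CPM in naive libraries. Eif2b4 rose in TH1 cells with no overlap (1.22 ± 0.048, adjusted p = 1.03e-14), while naive cells before and after stimulation overlapped (-0.01 ± 0.071, adjusted p = 0.910). The response in TH1 minus that in naive cells was 1.23 ± 0.086 (adjusted p = 1.77e-11). Eif2b1, the alpha subunit to which phosphorylated eIF2α binds, averaged 77.9 ± 5.91 CPM in reactivated TH1, 40.5 ± 2.42 in TH1 effector, 51.3 ± 4.22 in activated naive and 32.5 ± 1.56 CPM in naive libraries (SD, n = 6 each). It rose in TH1 (0.94 ± 0.035, adjusted p = 1.92e-15) and naive cells (0.66 ± 0.041, adjusted p = 1.75e-12). Eif2b5, the catalytic epsilon subunit, rose by 0.76 and 1.03 on the log2 scale. Eif2b2, the beta subunit, passed in neither (-0.03 ± 0.025, adjusted p = 0.645, and 0.10 ± 0.051, adjusted p = 0.0672). Exons of Eif2b4 overlap a gene on the other strand, whose reads may be included, as the strand setting of the counting is not given.

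The 4 eIF2α kinases, which stop general initiation under stress, each had a pattern of its own. Eif2ak3 (PERK, the kinase of unfolded protein stress) had 30.3, 39.5 and 46.1 CPM at its lowest, median and highest in reactivated TH1 libraries, against 109, 138 and 156.9 CPM in TH1 effector libraries. It had 30.1, 36.9 and 45.0 CPM at its lowest, median and highest in activated naive libraries, against 65.6, 69.9 and 73.5 CPM in naive libraries. It was lower after stimulation of either cell with no overlap, with log2 fold changes of -1.77 ± 0.10 in TH1 (edgeR adjusted p = 5.71e-14) and -0.88 ± 0.10 in naive cells (edgeR adjusted p = 1.83e-08), and 1.93-fold higher in TH1 effector than in naive cells. Eif2ak4 (GCN2, the kinase of amino acid shortage) averaged 34.2 ± 1.39 CPM in reactivated TH1, 41.9 ± 5.41 in TH1 effector, 41.6 ± 3.50 in activated naive and 31.5 ± 3.39 CPM in naive libraries (SD, n = 6 each). It fell slightly in TH1 (-0.29 ± 0.052, adjusted p = 7.95e-04) and rose slightly in naive cells (0.40 ± 0.075, adjusted p = 1.65e-05). In the second run alone its TH1 value was -0.10 (adjusted p = 0.441). Eif2ak1 (HRI, the kinase of haem shortage) rose slightly in both (0.27 ± 0.042 and 0.34 ± 0.043).

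Eif2ak2 (PKR, the kinase that double-stranded RNA switches on, and an interferon-induced gene) moved in opposite directions in the 2 responses. It had 71.9, 146 and 213 CPM at its lowest, median and highest in reactivated TH1 libraries, against 55.3, 70.6 and 89.5 CPM in TH1 effector libraries. It had 15.7, 24.4 and 73.0 CPM at its lowest, median and highest in activated naive libraries, against 60.2, 65.8 and 84.3 CPM in naive libraries. The libraries overlapped in both pairs. Its log2 fold change was 0.96 ± 0.18 in TH1 (edgeR adjusted p = 0.00350) and -1.03 ± 0.36 in naive cells (edgeR adjusted p = 0.00244), and the difference of the responses was 1.99 ± 0.40 (adjusted p = 1.58e-04). The activated naive libraries fell into numbers 1 to 4 at 15.7, 18.5, 29.8 and 18.9 CPM and numbers 5 and 6 at 73.0 and 68.9 CPM. In the second run alone, which holds both of these and number 4, the naive value was -0.37 (adjusted p = 0.432), against -1.69 (adjusted p = 0.000296) in the first run alone. Without numbers 5 and 6 it was -1.82 (adjusted p = 7.90e-06). Numbers 5 and 6 were also the highest in reactivated TH1 libraries, at 213 and 190 CPM, above 71.9 to 147 CPM in numbers 1 to 4. In TH1 effector and naive libraries they did not both stand above the rest. The summed CPM of 12 other interferon-induced genes, a list chosen after the values of Eif2ak2 were seen, was 1159.8 and 1054 in activated naive numbers 5 and 6, above 365 to 533 in numbers 1 to 4. In reactivated TH1 the list summed to 1212 and 1051 CPM in numbers 5 and 6, above 460 to 850 CPM in numbers 1 to 4. In TH1 effector libraries it summed to 1277 and 1038 CPM in numbers 5 and 6, above 733 to 1030 CPM. In naive libraries numbers 5 and 6 were lowest, at 2069 and 2023 CPM, below 2142 to 2895 CPM. The part of these genes in the result was not tested.

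Of the 12 tested eIF3 subunit genes, 9 rose and 2 fell in TH1 cells, and 10 rose and 1 fell in naive cells, but by very different amounts. Over all genes tested, 39.9% rose and 39.8% fell in TH1, and 41.3% rose and 40.5% fell in naive cells. Eif3b, a core scaffold subunit, had 679, 726 and 768 CPM at its lowest, median and highest in reactivated TH1 libraries, against 309, 364 and 414 CPM in TH1 effector libraries. It had 706, 762 and 834 CPM at its lowest, median and highest in activated naive libraries, against 151.2, 174.9 and 199.9 CPM in naive libraries. The groups were apart in both pairs, with log2 fold changes of 1.02 ± 0.044 in TH1 (edgeR adjusted p = 4.56e-16) and 2.13 ± 0.046 in naive cells (edgeR adjusted p = 8.63e-23). Eif3a, the largest subunit, averaged 1063 ± 45.3 CPM in reactivated TH1, 679 ± 16.8 in TH1 effector, 976 ± 85.7 in activated naive and 424 ± 12.6 CPM in naive libraries (SD, n = 6 each). The log2 fold changes of Eif3a, Eif3b, Eif3c, Eif3d, Eif3g, Eif3i and Eif3l lay between 0.42 and 1.02 in TH1 and between 0.91 and 2.23 in naive cells.

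The other 5, Eif3e, Eif3f, Eif3h, Eif3k and Eif3m, lay between -0.37 and 0.34 in TH1 and between -0.44 and 0.55 in naive cells. They were set apart by these same fold changes, so the separate ranges follow from the split. In TH1 cells the nearest genes across it were Eif3m (0.34) and Eif3i (0.42). Eif3f, which codes for a subunit with an MPN domain like that of Eif3h, had 305, 335 and 389 CPM at its lowest, median and highest in reactivated TH1 libraries, against 398, 443 and 479 CPM in TH1 effector libraries. It had 208, 218 and 230.9 CPM at its lowest, median and highest in activated naive libraries, against 260.3, 303 and 321 CPM in naive libraries. Both stimulated groups lay below their unstimulated ones with no overlap, with log2 fold changes of -0.37 ± 0.072 in TH1 (edgeR adjusted p = 6.10e-06) and -0.44 ± 0.051 in naive cells (edgeR adjusted p = 3.04e-07). Eif3h fell in TH1 cells (-0.23 ± 0.036, adjusted p = 1.61e-05) and did not pass in naive cells (-0.03 ± 0.032, adjusted p = 0.503). The log2 ratio of Eif3e to Eif3b counts, which does not depend on how libraries are scaled, averaged -1.0 in reactivated TH1 and 0.10 in TH1 effector libraries. It averaged -1.09 in activated naive and 0.75 in naive libraries. Both differences, -1.10 in TH1 and -1.84 in naive cells, passed with no overlap (exact permutation test, n = 6 each, adjusted p = 0.00306). The pair takes a gene from each side of the split, so this test is no separate evidence for it.

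In TH1 effector against naive cells all 12 tested eIF3 genes were higher, Eif3e, Eif3f and Eif3h among them, with log2 fold changes between 0.33 and 1.03. Over all members, 41 of 56 were higher (73.2%, against 44.6% of all genes) and 9 lower (16.1%, against 40.3%) in that comparison, 50 in all (89.3%, against 84.9%), with a median log2 fold change of 0.46, against 0.06 over all genes. The share of members at least 2-fold higher, 19.6% (11 members), was below that of all genes (25.2%), and 2 were at least 2-fold lower (3.57%, against 16.4%). Within the first run 39 were higher and 9 lower, and within the second 41 and 8.

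**Figure D4:**
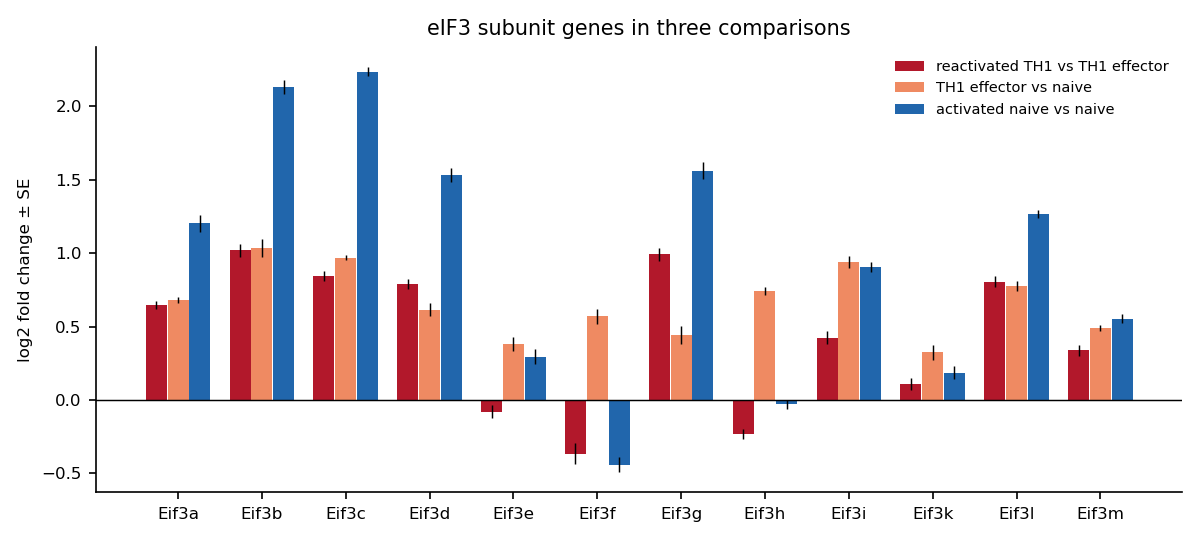
Log2 fold change with its SE (y axis) of the 12 tested eIF3 subunit genes (x axis) in reactivated TH1 against TH1 effector cells, TH1 effector against naive cells, and activated naive against naive cells. Eif3b and Eif3c rise most in naive cells, Eif3f lies below 0 in both responses, and all 12 are above 0 in TH1 effector against naive cells. The last 2 comparisons share the naive libraries.

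Eif4e and Eif4e3 moved in opposite directions in both responses. Eif4e, which codes for the main cap-binding protein, had 283, 297 and 312 CPM at its lowest, median and highest in reactivated TH1 libraries, against 106, 109 and 116 CPM in TH1 effector libraries. It had 186, 216 and 226.0 CPM at its lowest, median and highest in activated naive libraries, against 45.2, 49.6 and 53.0 CPM in naive libraries. All 4 states were apart, and the log2 fold changes were 1.43 ± 0.022 in TH1 (edgeR adjusted p = 1.00e-18) and 2.09 ± 0.060 in naive cells (edgeR adjusted p = 2.10e-22). Eif4e3, a relative that binds the cap in another way and is described as a competitor of eIF4E, had 9.91, 12.3 and 15.7 CPM at its lowest, median and highest in reactivated TH1 libraries, against 210.3, 226.5 and 256 CPM in TH1 effector libraries. It had 3.24, 4.0 and 4.90 CPM at its lowest, median and highest in activated naive libraries, against 42.9, 48.2 and 53.9 CPM in naive libraries. Again no library of any state overlapped another state, and Eif4e3 was 18.2-fold lower after stimulation of TH1 cells (log2 fold change -4.19 ± 0.13, edgeR adjusted p = 3.49e-21) and 11.9-fold lower after that of naive cells (-3.58 ± 0.10, edgeR adjusted p = 1.11e-20). In TH1 effector cells Eif4e3 stood 4.71-fold above naive cells (2.23 ± 0.070, edgeR adjusted p = 1.70e-17). Per kilobase of exon, Eif4e had 49.3 and Eif4e3 4.96 CPM in reactivated TH1, 18.3 and 90.4 in TH1 effector, 35.0 and 1.61 in activated naive, and 8.23 and 19.2 in naive cells, so that Eif4e3 was the higher of the pair in both unstimulated states. Not divided by length, naive cells averaged 49.5 CPM of Eif4e and 48.3 CPM of Eif4e3. Exons of Eif4e3 share bases with another gene on the same strand, and its level is uncertain to that extent. Eif4e2 (4EHP, a cap-binding repressor) rose in both (0.48 ± 0.026 and 0.58 ± 0.021), less than Eif4e, and the Eif4e to Eif4e2 ratio differed in all 4 pairs of states (exact permutation test, n = 6 each, adjusted p = 0.00306).

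The helicase genes moved together in TH1 cells and in opposite directions in naive cells. Eif4a1 had 1992, 2097 and 2134 CPM at its lowest, median and highest in reactivated TH1 libraries, against 1016, 1079.7 and 1129 CPM in TH1 effector libraries. It had 1548, 1675 and 1778 CPM at its lowest, median and highest in activated naive libraries, against 413, 425 and 434 CPM in naive libraries. Eif4a2, which codes for a near-identical protein, had 614, 688 and 738 CPM at its lowest, median and highest in reactivated TH1 libraries, against 432, 473 and 519 CPM in TH1 effector libraries. It had 687, 724 and 755 CPM at its lowest, median and highest in activated naive libraries, against 821, 920.3 and 1038 CPM in naive libraries. Eif4a1 rose in both responses (0.95 ± 0.029 in TH1, edgeR adjusted p = 6.32e-17, and 1.98 ± 0.036 in naive cells, adjusted p = 1.62e-23). Eif4a2 rose in TH1 (0.51 ± 0.055, adjusted p = 3.86e-09) and fell in naive cells (-0.37 ± 0.049, adjusted p = 8.85e-07), and was lower in TH1 effector than in naive cells (-0.97 ± 0.064). The log2 ratio of Eif4a1 to Eif4a2 counts was 1.51 to 1.80 in reactivated TH1, 1.05 to 1.39 in TH1 effector, 1.04 to 1.31 in activated naive and -1.33 to -0.94 in naive libraries. Naive cells alone had more counts of Eif4a2 than of Eif4a1, and each of the 4 tested pairs of states differed (exact permutation test, n = 6 each, adjusted p = 0.00306). Both genes, Eif4a1 with near-identical copies and Eif4a2 with an overlap on the other strand, are uncertain to that extent. Both also share exon bases with small RNA genes on their own strand.

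Eif4g1, the main scaffold, averaged 1252 ± 42.7 CPM in reactivated TH1, 633 ± 28.5 in TH1 effector, 1369.9 ± 99.4 in activated naive and 486 ± 28.8 CPM in naive libraries (SD, n = 6 each). It rose in TH1 (0.98 ± 0.028, edgeR adjusted p = 2.95e-17) and naive cells (1.49 ± 0.029, edgeR adjusted p = 2.01e-21). Its relative Eif4g3 also rose in both (0.65 ± 0.054 and 1.14 ± 0.042) but was lower in TH1 effector than in naive cells (-0.32 ± 0.041) and lower in reactivated TH1 than in activated naive cells (-0.81 ± 0.055). Eif4g2 (DAP5), which lacks the part that binds eIF4E, rose by 0.76 in TH1 and 0.42 in naive cells. The helicase cofactors were Eif4h, which rose in both (0.58 ± 0.029 and 1.05 ± 0.033), and Eif4b, which rose in naive cells (0.48 ± 0.021) and did not pass in TH1 cells (-0.07 ± 0.028, adjusted p = 0.120). Among the 10 tested genes of eIF4F and its cofactors, 8 rose and 1 fell in TH1, and 8 rose and 2 fell in naive cells. The shares over all genes were 39.9% rising and 39.8% falling in TH1, and 41.3% and 40.5% in naive cells.

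**Figure D5:**
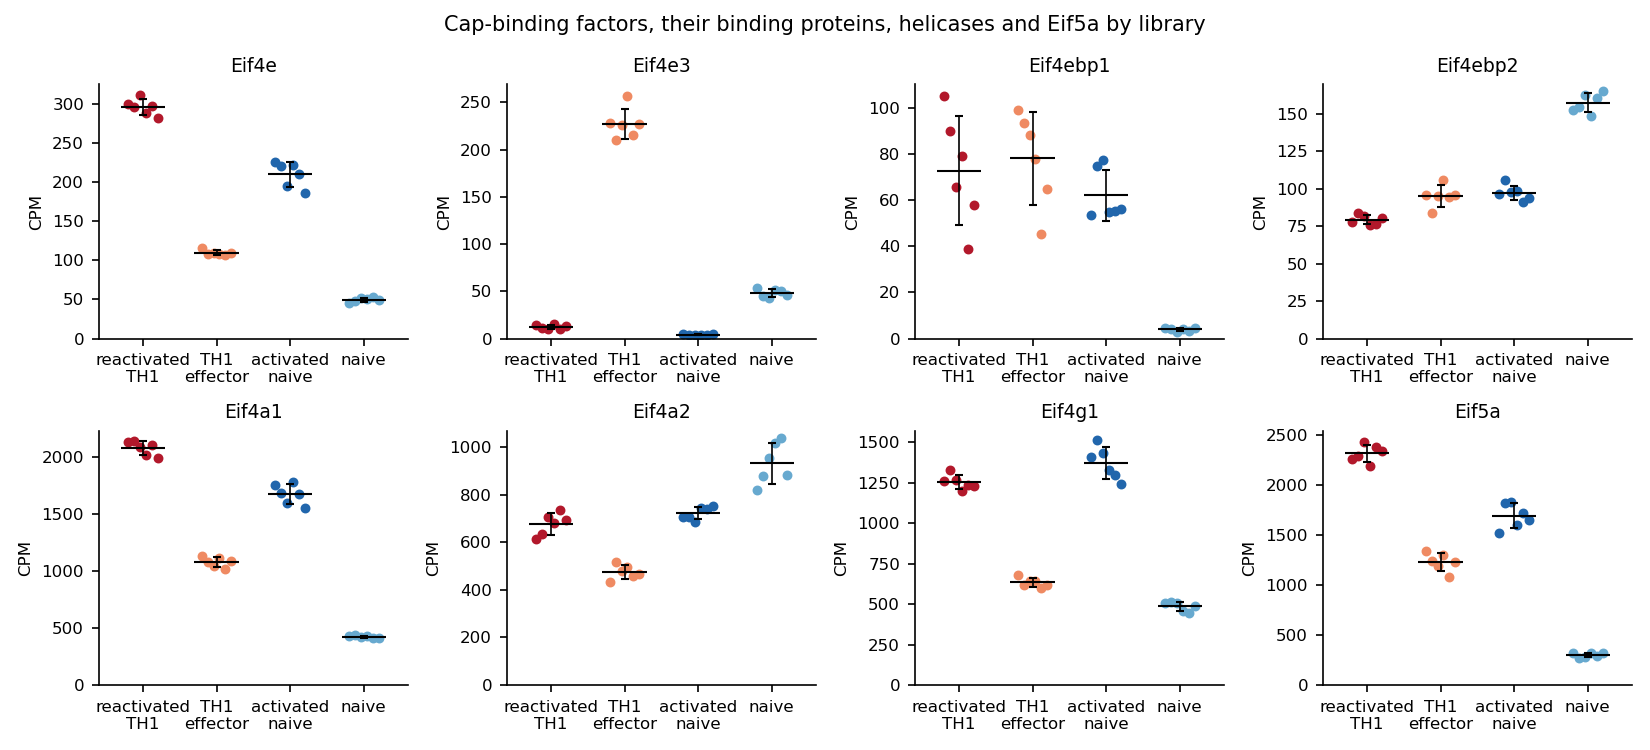
CPM (y axes, from 0) of Eif4e, Eif4e3, Eif4ebp1, Eif4ebp2, Eif4a1, Eif4a2, Eif4g1 and Eif5a in each library of the 4 states (x axes), with the mean and SD of 6. Eif4e is higher and Eif4e3 lower in each stimulated state than in its unstimulated one, Eif4ebp1 is 2.99 to 4.70 CPM in naive libraries and at least 38.6 CPM in all others, and Eif4a2 is highest in naive libraries.

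The 4E-binding protein genes did not move together. Eif4ebp1 (4E-BP1) had 38.6, 72.3 and 105 CPM at its lowest, median and highest in reactivated TH1 libraries, against 45.2, 82.9 and 98.8 CPM in TH1 effector libraries. It had 53.7, 55.5 and 77.3 CPM at its lowest, median and highest in activated naive libraries, against 2.99, 4.11 and 4.70 CPM in naive libraries. Naive libraries were apart from all others, and the other 3 states overlapped. Its log2 fold change was 3.96 ± 0.14 in naive cells (edgeR adjusted p = 6.78e-15), the largest rise of any member there, and 4.28 ± 0.16 in TH1 effector against naive cells (edgeR adjusted p = 2.52e-15). In TH1 cells it was -0.10 ± 0.21 (edgeR adjusted p = 0.571), and the difference of the responses was -4.06 ± 0.25 (adjusted p = 2.28e-12). Against activated naive cells, reactivated TH1 cells had 0.21 ± 0.20 (adjusted p = 0.233), which was 0.32 (adjusted p = 0.0385) without number 5.

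Eif4ebp2 (4E-BP2) had 75.9, 78.8 and 83.9 CPM at its lowest, median and highest in reactivated TH1 libraries, against 83.7, 95.3 and 106 CPM in TH1 effector libraries. It had 91.3, 96.9 and 106 CPM at its lowest, median and highest in activated naive libraries, against 148, 157.6 and 164.9 CPM in naive libraries. It was lower after stimulation in both, with a log2 fold change of -0.26 ± 0.046 in TH1 (edgeR adjusted p = 3.56e-05) with the libraries overlapping by little, and of -0.69 ± 0.037 in naive cells (edgeR adjusted p = 1.13e-12) with none overlapping. Per kilobase of exon, naive cells held 1.81 CPM of Eif4ebp1 and 27.2 CPM of Eif4ebp2, and the order was reversed in reactivated TH1 (33.1 and 13.7), TH1 effector (35.5 and 16.4) and activated naive cells (28.2 and 16.8). The reversal rests on the exon lengths. Without them Eif4ebp1 averaged below Eif4ebp2 in reactivated TH1 (72.6 and 79.2 CPM), TH1 effector (78.0 and 95.1) and activated naive cells (61.9 and 97.1) too. The log2 ratio of Eif4ebp1 to Eif4ebp2 counts differed by 4.64 between activated naive and naive libraries (exact permutation test, n = 6 each, adjusted p = 0.00306), and by 0.13 between reactivated TH1 and TH1 effector libraries (adjusted p = 0.628). The log2 ratio of Eif4e to Eif4ebp1 counts was higher by 1.56 in reactivated TH1 than in TH1 effector libraries, and in activated naive against naive libraries it differed by -1.86 (exact permutation test, n = 6 each, adjusted p = 0.00306 for both). The Eif4e to Eif4ebp2 ratio was higher in the stimulated state of both cells, by 1.69 in TH1 and 2.78 in naive cells, with the same adjusted p. Eif4ebp3 (4E-BP3) averaged 12.0 CPM in reactivated TH1, 12.2 in TH1 effector, 22.4 in activated naive and 26.3 CPM in naive libraries. Its fall in naive cells (-0.23 ± 0.074, adjusted p = 0.0107) was not past the threshold in either run alone (adjusted p = 0.0529 and 0.179). Eif4enif1 (4E-T, which carries eIF4E into the nucleus) rose in both (0.24 ± 0.035 and 0.67 ± 0.029).

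Eif5a, which codes for the factor that carries the amino acid hypusine and helps both elongation and termination, had 2192, 2316 and 2431 CPM at its lowest, median and highest in reactivated TH1 libraries, against 1082, 1236 and 1337 CPM in TH1 effector libraries. It had 1518, 1685 and 1832 CPM at its lowest, median and highest in activated naive libraries, against 274, 303 and 322 CPM in naive libraries. All 4 states were apart. Its log2 fold change was 0.91 ± 0.052 in TH1 (edgeR adjusted p = 1.54e-13), 2.49 ± 0.062 in naive cells (edgeR adjusted p = 1.90e-22) and 2.03 ± 0.061 in TH1 effector against naive cells (edgeR adjusted p = 1.61e-20). Per kilobase of exon Eif5a had the highest level of all members in every state but naive, at 974 CPM in reactivated TH1, 517 in TH1 effector, 711 in activated naive and 126 in naive cells, where Eif1 was highest at 248.4. Its copy Eif5a2 had 11.3 to 21.8 CPM over all libraries, rose in naive cells (0.48 ± 0.087, adjusted p = 1.64e-05), did not pass in TH1 cells (-0.04 ± 0.078, adjusted p = 0.708) and was higher in TH1 effector than in naive cells (0.24 ± 0.074, adjusted p = 0.0118). The enzymes that make hypusine, Dhps and Dohh, rose in both responses (Dhps 1.19 ± 0.055 and 1.07 ± 0.077, Dohh 1.12 ± 0.056 and 1.28 ± 0.093). Eif6, which keeps the ribosomal subunits apart until they are ready to join, averaged 276 ± 13.8 CPM in reactivated TH1, 121 ± 5.75 in TH1 effector, 211 ± 12.4 in activated naive and 67.9 ± 5.12 CPM in naive libraries (SD, n = 6 each), and rose in TH1 (1.19 ± 0.043, edgeR adjusted p = 9.21e-17) and naive cells (1.63 ± 0.058, edgeR adjusted p = 5.70e-20). Eif4a3, the helicase of the exon junction complex that marks spliced messengers, rose in both (0.51 ± 0.033 and 1.10 ± 0.035).

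The 4 Argonaute symbols differed from each other. Eif2c2 (Ago2, the member that can cut its target) had 305, 323 and 397 CPM at its lowest, median and highest in reactivated TH1 libraries, against 209.6, 242.4 and 272 CPM in TH1 effector libraries. It had 684, 735 and 806 CPM at its lowest, median and highest in activated naive libraries, against 236.97, 241.7 and 250.7 CPM in naive libraries. It was highest in activated naive libraries, apart from all others, and was 2.21-fold lower in reactivated TH1 than in activated naive cells (-1.14 ± 0.065, edgeR adjusted p = 3.73e-15). Eif2c1 (Ago1) was 95.8 CPM in reactivated TH1, 67.3 in TH1 effector, 98.1 in activated naive and 133 CPM in naive libraries on average, rising in TH1 (0.51 ± 0.034) and falling in naive cells (-0.44 ± 0.043). Eif2c3 (Ago3) averaged 25.5, 17.1, 57.5 and 50.9 CPM in the same order. Eif2c4 (Ago4) was seen almost only in TH1 states, with 79 counts over the 6 reactivated TH1 libraries, 357 in TH1 effector, 2 in activated naive and 1 in naive libraries. Scaled for depth, TH1 effector over naive was 302-fold with a 95% counting interval from 53.9 to 12000, and reactivated TH1 over activated naive 37-fold (9.90 to 310.0).

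Between the stimulated states, reactivated TH1 and activated naive cells, 22 of 56 members were higher (39.3%, against 43.4% of all genes) and 16 lower (28.6%, against 36.4%), 38 in all (67.9%, against 79.8%). The median log2 fold change was 0.05, against 0.08 over all genes. Cell state, days in differentiation and the means of stimulation cannot be told apart between these states. Within the first run 20 were higher and 14 lower, and within the second 19 and 12. At least 2-fold higher were Eif2ak2 (1.99 ± 0.39), Eif4e3 (1.62 ± 0.14) and Eif2c4, which is 5.36%, against 23% of all genes. Eif2c2 and Eif2c3 were at least 2-fold lower (3.57%, against 11%). Eif3a had 0.12 ± 0.059 (adjusted p = 0.0223), a call that did not hold in the first run alone (adjusted p = 0.105), the second run alone (0.186), or without number 2 (0.063), 3 (0.0573), 4 (0.0752), 5 (0.0762) or 6 (0.0714).

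The response in TH1 cells minus that in naive cells was below 0 for 45 of the 56 tested members and above 0 for 11. At an adjusted p under 0.05 it was below 0 for 36 (64.3%, against 33.7% of all genes) and above 0 for 8 (14.3%, against 34.2%), with a median of -0.49 on the log2 scale, against -0.004 over all genes. The difference was at least 2-fold and below 0 for 9 members (16.1%, against 15.4% of all genes). It was at least 2-fold and above 0 for 2, Eif2ak2 and Eif2b4 (3.57%, against 15%). The responses of Eif2ak2 were of opposite sign, 0.96 in TH1 and -1.03 in naive cells. The first run alone gave 36 calls below and 8 above 0, and the second 33 and 5. In this difference too, cell state, days in differentiation and the means of stimulation cannot be told apart. The most negative, each with TH1 effector libraries above naive ones, were Eif4ebp1 (-4.06 ± 0.25), Eif2s2 (-1.82 ± 0.091) and Eif5a (-1.58 ± 0.081), and the most positive were Eif2ak2, Eif2b4 and Eif2c1 (0.95 ± 0.055). The call for Eif2s3x (-0.57 ± 0.28, adjusted p = 0.0451) did not hold without number 1 (0.0518), 2 (0.0912), 3 (0.0754), 5 (0.0669) or 6 (0.0712). Over the edgeR and DESeq2 settings tried, its adjusted p ran from 1.74e-06 to 0.271. Eif2d had -0.19 ± 0.088 (adjusted p = 0.0608) and with library number as a block -0.18 (adjusted p = 0.0333).

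Of 69 other genes of the translation pathway listed from textbook knowledge, 66 were tested. In TH1 cells 37 rose (56.1%, against 39.9% of all genes) and 20 fell (30.3%, against 39.8%), and in naive cells 42 rose (63.6%, against 41.3%) and 14 fell (21.2%, against 40.5%). Of the 23 tested genes of mTORC1 and its control, 11 rose and 9 fell in TH1, and 13 rose and 5 fell in naive cells. Those that rose in both included Mtor (0.76 ± 0.057 and 0.44 ± 0.048), Rptor (1.16 ± 0.063 and 0.69 ± 0.055) and Rheb (1.07 ± 0.058 and 1.86 ± 0.17). The genes named here are only some of the 66, and no rule was set for picking them. Pdcd4, an inhibitor of eIF4A, averaged 33.8 CPM in reactivated TH1, 116 in TH1 effector, 23.3 in activated naive and 290.1 CPM in naive libraries. It was lower after stimulation of TH1 (-1.78 ± 0.17, adjusted p = 2.65e-06) and naive cells (-3.64 ± 0.37, adjusted p = 8.23e-11), where Eif4a1 was higher. Mknk2, a kinase of eIF4E, fell too (-1.05 ± 0.057 and -1.63 ± 0.079), as did Eef2k, the kinase that inhibits elongation (-1.31 ± 0.10 and -2.81 ± 0.21). Sesn2, a stress-induced inhibitor of mTORC1, averaged 40.5 CPM in reactivated TH1, 45.9 in TH1 effector, 57.0 in activated naive and 3.83 CPM in naive libraries, a pattern like that of Eif4ebp1 in which naive cells alone were low. Ddit3, a transcription factor of the eIF2α stress arm, averaged 21.8 CPM in reactivated TH1, 43.1 in TH1 effector, 107 in activated naive and 21.6 CPM in naive libraries, rising in naive (2.30 ± 0.073) and falling in TH1 cells (-0.99 ± 0.10). Ppp1r15a, which recruits the phosphatase of eIF2α, averaged 60.0 CPM in reactivated TH1, 52.7 in TH1 effector, 164.6 in activated naive and 557 CPM in naive libraries. Larp1, which binds messengers of ribosomal proteins and translation factors, averaged 882 CPM in reactivated TH1, 573 in TH1 effector, 837 in activated naive and 235.3 CPM in naive libraries, and Ybx1, a messenger-binding protein, rose in TH1 (0.86 ± 0.049) and naive cells (1.80 ± 0.041).

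Some values carry an uncertainty of counting. Transcripts of Eif1, Eif2s1, Eif2s2, Eif2s3x, Eif3e, Eif3h, Eif3m, Eif4a1, Eif4a3, Eif4e and Eif4ebp3 match another annotated gene over at least 500 bases at 95% identity or more, so some of their reads may have been set aside or placed elsewhere. Eif1ad, Eif1b, Eif2a, Eif2ak1, Eif2ak2, Eif2ak3, Eif2b4, Eif2c2, Eif2d, Eif3d, Eif3m, Eif4a2, Eif5b and Eif6 have exons that overlap a gene on the other strand. Eif4ebp3 and Eif4e3 share exon bases with a gene on their own strand other than a small RNA gene. Among tested members, Eif4a1, Eif4a2, Eif4e, Eif4g1, Eif4g2 and Eif5 share exon bases with small RNA genes on their own strand. The labels do not say whether the 6 numbers of a state are separate animals or cultures, and p-values measure the spread among these libraries. Numbers 1, 5 and 6 held Y-linked reads and numbers 2, 3 and 4 held Xist, so the 6 did not all come from 1 animal, while the spread within each of these sets may be technical.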

How the data were processed

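The authors deposited, for each library, a table of whole-number counts of reads for every gene symbol, with no scaling. The labels' protocols name a stranded library kit and sorted cells. STAR, HTSeq, DESeq2 and build mm10 stand in the submitters' processing notes, and neither the annotation nor the strand setting of the counting is given in the sources used here. Each table has 23420 symbols and 5 summary lines, left out of every library size and test. Averaged over a state, the reads in these lines came to 15.6 to 23.1% without a feature, 0.749 to 1.11% ambiguous and 5.92 to 7.53% aligned to more than 1 place.

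After filterByExpr 12584 genes were left. They were scaled with TMM factors and fitted in 1 quasi-likelihood model of the 24 libraries with terms for state and run (R 4.3.3, edgeR 4.0.16, limma 3.58.1). All p-values of genes come from this edgeR test, adjusted by Benjamini-Hochberg over the genes tested, with a threshold of 0.05. CPM are scaled by TMM, and the SE is taken from the spread of log2 CPM within state and run. Values per kilobase divide by the GENCODE exon length of the gene, which may differ from the annotation used in counting. Ratios are of counts plus 1 within a library, for 12 of 13 listed pairs in 4 comparisons (48 tests). They were tested with exact two-sided permutation tests, which cannot go below p = 0.00216 with 6 against 6 libraries. Near-identical copies were sought with blastn 2.17.0 in GENCODE M21 transcripts. The tests were tried on simulated counts. Libraries of the same state all differed by more than counting noise, with a chi-square of at least 8.9 times its degrees of freedom.

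The members, their roles and all gene lists were chosen with earlier results of these data known. Levels in each state are given for the 3 largest rises and the 3 largest falls past the threshold in each comparison, if the higher state averaged 10 CPM or more, which are 16 members, and for 13 more from a list of 19. Others named beside a role group were picked after their values were seen. Same-numbered libraries deviated together from the means of their states, with correlations from 0.106 to 0.43 over 6 numbers in each of 4 comparisons (0.079 at the lowest once run was also taken out), and numbers with Y-linked reads were the same in every state. The main edgeR fit and the ratio tests did not pair the numbers. A fit with number as a block was made as well, and its value stands beside each named call it changes. Other settings tried were DESeq2 size factors, library size alone, the DESeq2 1.42.0 Wald test, no filter, a filter at 10 CPM, no run term, the compared states alone, each run alone and each number left out. Leaving out numbers 5 and 6, and leaving out the Argonaute symbols, were added after the data were seen.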

Additional observations from a re-analysis of the deposited data

Results flagged for a closer look

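Whether TH1 and naive cells responded by unlike amounts was tested in the edgeR model, as the TH1 response less the naive one, and the test passed for 24 of the 29 named members (82.8%, against 67.9% of all genes). Of the 29, 6 were named for the size of this very difference, so nothing is read from that share. The cells also differed in days of differentiation and in the means of stimulation, which cannot be told apart from cell state. The difference was negative for Eif4ebp1 (-4.06 on the log2 scale), Eif2s2 (-1.82), Eif5a (-1.58), Eif1a (-1.56), Eif3b (-1.12), Eif2c2 (-1.12), Eif4a1 (-1.03) and Eif2ak3 (-0.89). Smaller negative values were found for Eif2ak4 (-0.69), Eif5 (-0.69), Eif4e (-0.66), Eif2s1 (-0.64), Eif4e3 (-0.61), Eif2s3x (-0.57), Eif3a (-0.56), Eif4g1 (-0.51) and Eif6 (-0.44). It was positive for Eif2ak2 (1.99), Eif2b4 (1.23), Eif2c1 (0.95), Eif4a2 (0.88), Eif4ebp2 (0.43), Eif2c3 (0.41) and Eif2b1 (0.28). Of these, Eif2ak2 and Eif2ak4 passed in opposite directions in the 2 cells, as did Eif4a2 and Eif2c1.

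Among 120 sets of 6 values of the named members and of the summed share of all 59 symbols, 4 held a library apart from the other 5 in an outlier test. Chance gives about 1 in 20, so these 4 are no more than chance alone would give. Eif2ak4 was 31.5 CPM in reactivated TH1 number 2, below the next lowest at 33.9 CPM. Eif2b3 was 90.0 CPM in reactivated TH1 number 5, above the next highest at 84.0 CPM. Eif2d was 83.3 CPM in TH1 effector number 1, above 76.9 CPM, and Eif2s2 was 341.0 CPM in TH1 effector number 4, above 303 CPM.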

How the results depend on the processing

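Of the 187 counts of members called under other settings, 184 were within 1.5 times the values reported. With the second run alone, 5 members had a positive difference of responses, against 8 with both runs, and none of the 48 ratio tests passed in the first or the second run alone (0 in each, against 36), where 3 libraries a group allow no p under 0.1. Leaving out each number in turn gave 38 to 39 members higher in reactivated TH1 against TH1 effector cells, 40 to 41 in activated naive against naive, 39 to 41 in TH1 effector against naive and 20 to 23 in reactivated TH1 against activated naive cells. With number as a block, 39 members were higher and 9 lower in TH1 cells and 40 and 9 in naive cells. The paired fit changed the calls of Eif2s3x, Eif2s3y and Eif2d given above and no other named one. Of 2436 values of named members, 2372 had the same call, 34 lost it, 30 gained one and none changed direction past a threshold. With library size alone, the median of all genes moved by -0.122 in TH1 and -0.167 in naive cells, and 38 and 39 members were called higher. Under that scaling Eif2b4 (-0.17, adjusted p = 0.0255) and Eif2d (-0.29, adjusted p = 6.14e-05) also passed in naive cells, and the difference of responses of Eif2s3x did not (adjusted p = 0.0604). The cause of these changes was not tested. Without the Argonaute symbols, 36 of 52 members were higher in TH1 and 39 in naive cells. Depth limits Eif2c4, with 3 counts in all naive and activated naive libraries, and the 3 symbols with no counts.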
